A study of Homo sapiens with 12 samples.

Results

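The genes described here lie next to each other on the short arm of chromosome 7, from ZNF316 to KLHL7, a stretch that holds the aryl hydrocarbon receptor gene AHR. The 34 listed genes were chosen by where they lie and with the differences in level between L3.6pl and FG cells on these same arrays already known, and 31 of them were measured among 19775 genes in all. NXPH1 and AGMO had no probe set of a single gene, and the only probe set of TOMM7 was shared with C4orf46, so that these 3 members carry no value. In the RefSeq table of assembly GRCh38.p14, 211 genes lie from one end to the other, of which 60 were measured, the 31 listed genes and 29 others. COXFA4, a subunit of cytochrome c oxidase, stood on the list under its older name NDUFA4.

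The study measured transcripts in 2 human pancreatic cancer cell lines that, differ in metastatic potential according to its title. Repeated selection in mice for metastasis is known to have given L3.6pl, and FG is a fast-growing line of the same parent line. The groups were L3.6pl in hypoxia, FG in hypoxia, L3.6pl in normoxia and FG in normoxia, with 3 arrays each and 12 in all. Hypoxia meant that cultures spent their last 24 h at 1% oxygen, with nitrogen as the balance, and normoxic cultures were left untreated. All cells came from frozen stock and grew unpassaged in DMEM with serum, typically for 9 days. Each line stands for itself alone as a model, and in RNA of a whole culture fewer expressing cells and less RNA per cell cannot be told apart. The labels do not say whether the 3 arrays of a group stand for separate cultures, so that p-values measure the spread between these arrays, which may be technical.

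Arrays of a group correlated at a Pearson's r of 0.974 to 0.996 across genes, which are not independent replicates. The arrays farthest from their group mean were L3.6pl hypoxia 3 and FG normoxia 1, with median absolute deviations of 0.154 and 0.128 log2 units, and the other 10 arrays lay between 0.0735 and 0.114. All 6 epithelial marker genes had mean levels of log2 6 or more. The 5 measured markers of acinar and endocrine pancreas were all under log2 6, as were 3 of 4 markers of blood and endothelium, of which PECAM1 averaged 7.35. Of 6 markers of fibroblasts and stroma, 4 were under log2 6 and COL1A1 and COL3A1 above it. The summed log2 level of the 6 was 34.8 to 36.7 in L3.6pl hypoxia against 39.98 to 40.32 in FG hypoxia, and 33.7 to 34.3 in L3.6pl normoxia against 38.3 to 39.8 in FG normoxia. The sum was lower on every L3.6pl array through COL3A1, at 5.46 to 5.95 on L3.6pl against 9.99 to 11.85 on FG arrays, and in part COL1A1. LUM went the other way, at 2.90 to 6.29 on L3.6pl against 2.42 to 2.70 on FG arrays, and DCN, PDGFRB and THY1 overlapped near background. The part of these markers in the differences between the lines was not tested.

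AHR encodes a ligand-activated transcription factor of the basic helix-loop-helix PAS family. Without ligand the protein is held in the cytoplasm by HSP90 and co-chaperones. With ligand, such as dioxin, dietary indoles or the tryptophan product kynurenine, it enters the nucleus, pairs with ARNT and binds short DNA elements with the core GCGTG at genes such as CYP1A1, CYP1B1 and TIPARP. ARNT is also the partner of the hypoxia-inducible factors, whose core element reads ACGTG or GCGTG. Near AHR lie genes of unrelated function, among them ETV1, a PEA3-group ETS transcription factor, and ITGB8, the integrin chain that pairs with ITGAV and binds latent TGF-beta. The stretch also holds MACC1, known as a regulator of the MET receptor gene.

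RefSeq promoter windows, 250 bases before to 50 bases after each gene's start in GRCh38.p14, were found for 32 of the 34 listed genes. The windows below were chosen after their matches were known. They show AHR, ITGB8 and ANKMY2, genes far apart between the lines whose windows hold one of these cores, and BZW2, which shares its promoter region with ANKMY2. The window of ETV1, second to AHR in its difference between the lines, holds neither core and is not shown. They lie at chr7:17298402-17298701 for AHR on the plus strand, chr7:20330650-20330949 for ITGB8 on the plus strand, chr7:16645705-16646004 for ANKMY2 on the minus strand and chr7:16645931-16646230 for BZW2 on the plus strand. Each is written 5′ to 3′ on the strand of its gene, and capitals mark GCGTG or ACGTG on either strand.
AHR: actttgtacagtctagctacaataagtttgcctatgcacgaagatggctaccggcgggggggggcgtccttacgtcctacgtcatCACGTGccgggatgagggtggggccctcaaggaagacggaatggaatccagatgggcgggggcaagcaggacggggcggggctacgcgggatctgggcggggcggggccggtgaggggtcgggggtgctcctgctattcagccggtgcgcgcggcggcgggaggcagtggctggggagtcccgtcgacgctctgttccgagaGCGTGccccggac
ITGB8: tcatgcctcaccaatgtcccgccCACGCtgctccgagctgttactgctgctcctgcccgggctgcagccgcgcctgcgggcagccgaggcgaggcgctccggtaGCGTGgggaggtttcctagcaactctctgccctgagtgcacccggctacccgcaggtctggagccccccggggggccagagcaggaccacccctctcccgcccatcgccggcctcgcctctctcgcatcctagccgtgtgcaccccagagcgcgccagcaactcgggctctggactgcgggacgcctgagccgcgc
ANKMY2: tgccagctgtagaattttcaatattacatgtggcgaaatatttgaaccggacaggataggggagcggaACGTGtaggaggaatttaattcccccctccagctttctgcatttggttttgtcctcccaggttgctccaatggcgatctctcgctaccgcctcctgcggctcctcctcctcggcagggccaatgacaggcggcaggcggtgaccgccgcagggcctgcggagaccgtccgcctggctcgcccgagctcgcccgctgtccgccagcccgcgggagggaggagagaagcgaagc
BZW2: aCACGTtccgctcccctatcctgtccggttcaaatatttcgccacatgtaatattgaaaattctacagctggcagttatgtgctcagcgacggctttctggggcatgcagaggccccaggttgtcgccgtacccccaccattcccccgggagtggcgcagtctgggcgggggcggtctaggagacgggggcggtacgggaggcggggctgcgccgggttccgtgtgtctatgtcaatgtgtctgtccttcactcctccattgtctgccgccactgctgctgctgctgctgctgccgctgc
The AHR window holds 1 GCGTG, and an ACGTG on each strand that together read CACGTG. The ITGB8 window holds GCGTG once on each strand. ANKMY2 and BZW2 are read in opposite directions from a common region, their windows share 74 bases, and the single ACGTG of each is the same site read from the other strand. On either strand, GCGTG occurred in 16 of the 32 windows and in 35.9% of 27305 RefSeq promoter windows of the same length. ACGTG occurred in 9 of 32 and in 21.4% of all windows. A match of 5 letters describes the window and is no evidence of binding.

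The first question was how far the 2 lines differ along the stretch. Since these differences chose the list, they are given as a description with no test. Values are log2 intensities, and differences are L3.6pl minus FG. Over the 31 measured genes the median difference was 0.64 in hypoxia and 0.55 in normoxia, against 0.02 in each state over all 19775 genes. The difference was above 0 for 25 genes in hypoxia, for 27 in normoxia and for 24 in both. Of all genes, 52.7% were above 0 in hypoxia and 54.3% in normoxia. All 3 L3.6pl arrays lay above all 3 FG arrays for 18 genes in hypoxia, where 18.2% of all genes did so, and for 16 in normoxia, where 15.0% did so, with 15 genes in common. The reverse held for TMEM196 in hypoxia, against 13.9% of all genes, and for HDAC9 in normoxia, against 13.1%. At least 2-fold higher levels in L3.6pl were found for 9 genes in hypoxia, against 4.06% of all genes, and for 6 in normoxia, against 2.32%. AHR, ETV1, ANKMY2 and GLCCI1 were the 4 that were higher by that much in both states. At least 2-fold lower levels were found for no member in hypoxia, against 3.33% of all genes, and for 1 in normoxia, against 2.74%.

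The members differ in level. The 20 with a mean of log2 6 or more over the 12 arrays had median differences of 0.97 in hypoxia and 0.76 in normoxia, against 0.06 and 0.04 over the 10695 genes of that level. All 20 were above 0 in normoxia and 19 in hypoxia, where COXFA4 was the exception at -0.10. Of the 10695 genes of that level, 54.7% were above 0 in normoxia and 56.0% in hypoxia. The other 11 members, here called near background, had medians of 0.01 in hypoxia and 0.02 in normoxia. They were ZNF316, THSD7A, VWDE, SCIN, DGKB, MEOX2, HDAC9, TMEM196, MACC1, ABCB5 and SP8. Their differences ran from -0.34 to 0.49 in hypoxia and from -1.24 to 1.06 in normoxia, with HDAC9 at the low end in both states and MACC1 at the high end in normoxia. The split is not independent of the difference between the lines and is a description only. HDAC9, with a mean of 6.78 in FG normoxia, fell under log2 6 through its other groups, and GLCCI1, ETV1 and DNAH11 passed it with at least 1 FG mean below.

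**Figure D1:**
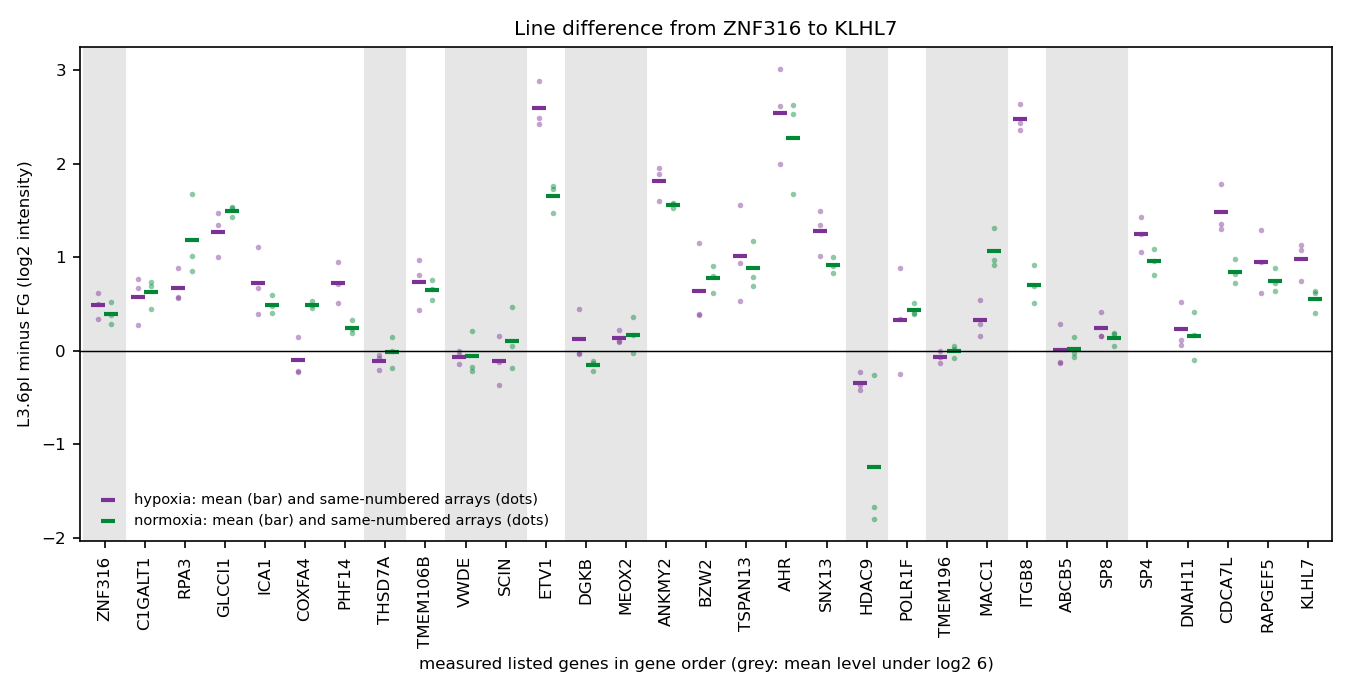
L3.6pl minus FG in log2 intensity (vertical axis) for the 31 measured listed genes in gene order (horizontal axis), in hypoxia (purple) and normoxia (green). Bars are means and dots the differences of the 3 same-numbered pairs of arrays, and grey bands mark the 11 genes with a mean level under log2 6. The genes outside the grey bands lie above 0 apart from COXFA4 in hypoxia, and AHR, ETV1 and ITGB8 reach beyond 2 in hypoxia.

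AHR had the largest difference between the lines, averaged over both oxygen states. Its log2 level was 9.91, 10.65 and 9.90 in L3.6pl hypoxia against 7.91, 7.64 and 7.27 in FG hypoxia. In normoxia it was 11.02, 10.63 and 10.42 in L3.6pl against 9.35, 8.004 and 7.89 in FG. The lines did not overlap in either state, and FG normoxia 1 stood above the other 2 arrays of its group. The means were 10.15 ± 0.43 in L3.6pl hypoxia and 7.61 ± 0.32 in FG hypoxia, and 10.69 ± 0.30 in L3.6pl normoxia and 8.41 ± 0.81 in FG normoxia (SD, n = 3 each). L3.6pl thus held 5.83-fold the FG level in hypoxia and 4.85-fold in normoxia, from 1 probe set. Without any single array, the difference stayed between 2.29 and 2.69 in hypoxia and between 2.02 and 2.75 in normoxia.

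ETV1 and SP4 are the other transcription factor genes among the 10 members with the largest differences. ETV1 stood at 8.19, 8.14 and 8.94 in L3.6pl hypoxia against 5.77, 5.25 and 6.45 in FG hypoxia. In normoxia it stood at 9.15, 8.76 and 8.87 in L3.6pl against 7.42, 6.997 and 7.40 in FG. The lines were clear of each other in both states, 6.06-fold apart by measured value in hypoxia and 3.15-fold in normoxia. The FG hypoxia mean of 5.82 was under log2 6, so that the hypoxic ratio is measured against a group near background. All 5 ETV1 probe sets were higher in L3.6pl, with differences averaged over both states from 0.39 to 2.13, and the probe set used here gave the largest. SP4, a zinc finger factor of the Sp family, had 8.19, 8.47 and 8.19 in L3.6pl hypoxia against 6.94, 7.04 and 7.13 in FG hypoxia. Its normoxic values were 8.88, 8.79 and 8.68 in L3.6pl against 8.06, 7.83 and 7.59 in FG. The groups did not overlap, with L3.6pl 2.37-fold higher in hypoxia and 1.94-fold in normoxia.

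ITGB8 differed chiefly in hypoxia. It had 10.04, 10.71 and 10.78 in L3.6pl hypoxia against 7.67, 8.07 and 8.34 in FG hypoxia, a 5.59-fold higher level in L3.6pl. In normoxia it had 10.60, 9.66 and 9.71 in L3.6pl against 10.08, 8.96 and 8.79 in FG, a 1.63-fold higher level. The lines were far apart in hypoxia and overlapped in normoxia, where replicate 1 was the highest array of each line. Without FG normoxia 1 the normoxic difference was 1.11, and without L3.6pl normoxia 1 it was 0.40, against 0.71 with all arrays. All 5 ITGB8 probe sets were higher in L3.6pl in both states, by 0.57 to 1.59 averaged over the states.

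ANKMY2 and BZW2, the neighbours that share a promoter region, were both higher in L3.6pl. ANKMY2 encodes a protein with ankyrin repeats and a MYND zinc finger, and BZW2 a protein that acts on the choice of start codons in translation. ANKMY2 had 10.26, 10.24 and 10.42 in L3.6pl hypoxia against 8.31, 8.34 and 8.82 in FG hypoxia, and 10.63, 10.63 and 10.47 in L3.6pl normoxia against 9.10, 9.06 and 8.91 in FG normoxia. These were differences of 3.52-fold in hypoxia and 2.94-fold in normoxia with no overlap. BZW2 had 11.08, 10.85 and 11.75 in L3.6pl hypoxia against 10.68, 10.47 and 10.60 in FG hypoxia. In normoxia BZW2 had 11.64, 11.86 and 12.07 in L3.6pl against 11.01, 11.05 and 11.16 in FG. Here too the lines did not overlap, with smaller differences of 1.56-fold in hypoxia and 1.71-fold in normoxia.

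GLCCI1, known as a transcript induced by glucocorticoids, had 7.18, 7.26 and 7.04 in L3.6pl hypoxia against 5.83, 6.26 and 5.56 in FG hypoxia. In normoxia it had 8.06, 7.75 and 7.48 in L3.6pl against 6.53, 6.21 and 6.05 in FG, and the lines did not overlap in either state. CDCA7L, whose protein binds MYC, had 9.87, 9.81 and 10.33 in L3.6pl hypoxia against 8.57, 8.46 and 8.54 in FG hypoxia. The CDCA7L values in normoxia were 9.90, 9.90 and 9.76 in L3.6pl against 8.92, 9.08 and 9.04 in FG. L3.6pl was higher by 2.79-fold in hypoxia and 1.79-fold in normoxia for CDCA7L, and by 2.42-fold and 2.83-fold in the same order of states for GLCCI1, whose FG hypoxia mean of 5.89 was under log2 6.

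SNX13, an endosomal sorting nexin, had 9.77, 10.05 and 9.84 in L3.6pl hypoxia against 8.27, 8.71 and 8.83 in FG hypoxia. Its normoxic levels were 9.84, 9.62 and 9.76 in L3.6pl against 8.84, 8.79 and 8.85 in FG, and no array of one line reached the other. All 5 SNX13 probe sets were higher in L3.6pl in both states, by 0.07 to 1.51. TSPAN13, a tetraspanin of the cell surface, had 9.44, 9.32 and 10.30 in L3.6pl hypoxia against 8.90, 8.38 and 8.74 in FG hypoxia. In normoxia it had 10.45, 10.48 and 10.54 in L3.6pl against 9.27, 9.69 and 9.85 in FG. L3.6pl hypoxia 3 lay above the other 2 arrays of its group, and the lines did not overlap. RPA3, the smallest subunit of the replication protein A complex, was less clear. It had 11.44, 10.74 and 11.37 in L3.6pl hypoxia against 10.56, 10.17 and 10.80 in FG hypoxia, and 11.35, 11.99 and 12.16 in L3.6pl normoxia against 9.67, 10.97 and 11.31 in FG normoxia. The RPA3 ranges overlapped in hypoxia and came close in normoxia, where FG normoxia 1 was the lowest array.

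**Figure D2:**
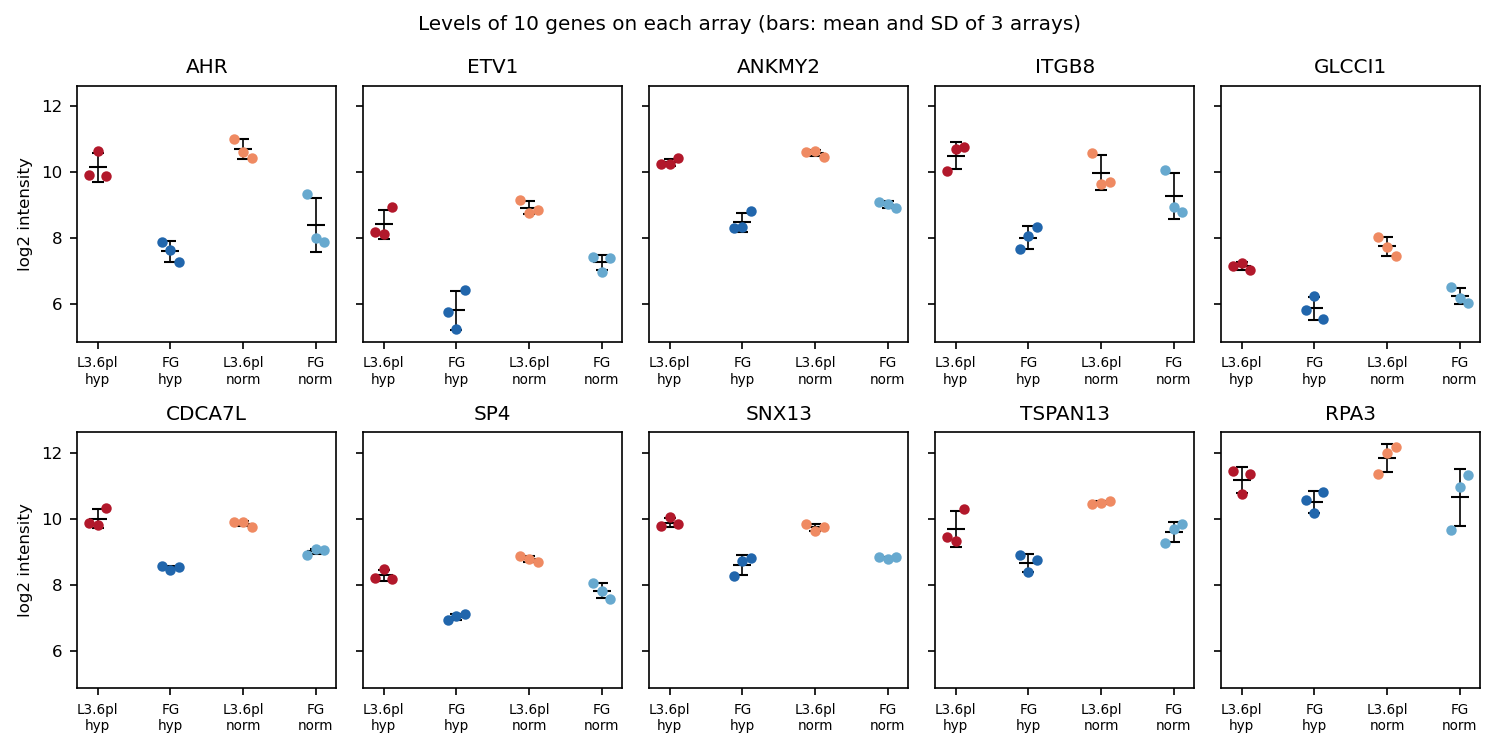
Log2 intensity (vertical axes) of the 10 listed genes with the largest differences between the lines, one panel a gene. Each dot is 1 of 3 arrays in L3.6pl hypoxia, FG hypoxia, L3.6pl normoxia and FG normoxia, from left to right, with the mean and SD as bars. AHR, ETV1 and ANKMY2 are clear of overlap in both states, while ITGB8 and RPA3 each overlap in one.

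Among the remaining members above background, C1GALT1, which builds the core of mucin-type O-glycans, was 1.49-fold higher in L3.6pl in hypoxia and 1.54-fold in normoxia. Its arrays overlapped between the lines in both. RAPGEF5, an exchange factor for Rap GTPases, was 1.93-fold and 1.68-fold higher in these states, with 7.09, 6.86 and 6.94 in L3.6pl hypoxia against 5.79, 6.25 and 5.997 in FG hypoxia. The lysosomal TMEM106B was higher by 0.74 and 0.66 log2 units with all 4 probe sets agreeing in sign, and KLHL7, an adaptor of the CUL3 ubiquitin ligase, by 0.99 and 0.55 with all 3. ICA1, an islet autoantigen, was higher by 0.73 and 0.49, PHF14, a PHD finger protein, by 0.73 and 0.25, POLR1F, a subunit of RNA polymerase I, by 0.33 and 0.43, and DNAH11, a ciliary dynein chain, by 0.23 and 0.16. Only 3 of 6 ICA1 probe sets and 1 of 2 PHF14 probe sets were higher in L3.6pl in both states. PHF14 arrays overlapped between the lines in normoxia. The other, dim POLR1F probe set had -0.09 in hypoxia and 0.39 in normoxia. COXFA4 changed sides between the states. It had 12.17, 11.65 and 11.85 in L3.6pl hypoxia against 12.02, 11.88 and 12.07 in FG hypoxia, and 12.00, 12.38 and 12.58 in L3.6pl normoxia against 11.48, 11.93 and 12.09 in FG normoxia, with overlap in both.

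HDAC9, a class IIa histone deacetylase, was the only member at least 2-fold lower in L3.6pl, and only in normoxia. It stood at 6.13, 5.11 and 5.37 there against 6.39, 6.79 and 7.17 in FG normoxia, and at 5.33, 5.403 and 5.85 in L3.6pl hypoxia against 5.57, 5.77 and 6.27 in FG hypoxia. The normoxic groups did not overlap, the hypoxic ones did, and 2 of the 5 HDAC9 probe sets were higher in L3.6pl in both states. Of the 24 members with more than 1 probe set, 9 had all of them higher in L3.6pl in both states, and 8 of these 9 were above background.

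The genes at the ends of the list were compared with their nearest measured neighbours outside it. Just inside lay the dim ZNF316, a zinc finger gene, at 0.49 in hypoxia and 0.40 in normoxia, and C1GALT1. At the far end lay RAPGEF5 and KLHL7. Of the 3 ZNF316 probe sets, only 1 was higher in L3.6pl in both states. Just outside the first end, ZDHHC4 had differences of 1.44 in hypoxia and 0.67 in normoxia, DAGLB 0.74 and 0.55, INTS15 0.13 and 0.20, and the dim ZNF853 -0.0033 and 0.16. Beyond KLHL7, NUP42 had 0.57 and 0.62, MALSU1 0.30 and 0.50, IGF2BP3 0.97 and -0.14, and the dim GPNMB -0.57 and -0.67. DAGLB, ZDHHC4, INTS15, NUP42 and MALSU1 were thus above 0 in both states, while GPNMB lay below every measured listed gene in hypoxia.

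The same held for a longer stretch of the chromosome. Genes of chromosome 7 with a mean of log2 6 or more were taken in gene order in runs of 25. The run from GNA12 to ICA1, which holds 4 members, had median differences of 0.57 in hypoxia and 0.49 in normoxia, and the run from ICA1-AS1 to KLHL7, which holds the other 16, had 0.99 and 0.73. In each of these 2 runs 22 genes were above 0 in hypoxia and 23 in normoxia. Runs that hold no member had like counts, with 22 and 23 for NUP42 to PLEKHA8 and 23 and 23 for CDK13 to IGFBP3. On the long arm they were 24 and 23 for ARPC1A to PPP1R35 and 21 and 24 for TSC22D4 to ORAI2. The run after KLHL7, NUP42 to PLEKHA8, had medians of 0.58 and 0.65. ZNRF2 to RALA had 0.41 and 0.45, and CDK13 to IGFBP3 0.42 and 0.57. Before the stretch, FAM20C to AMZ1 had -0.0020 and -0.06, and at the end of the long arm the last 13 genes, PAXIP1-DT to VIPR2, had -0.51 and -0.29. Over the 488 genes of chromosome 7 the medians were 0.21 in hypoxia and 0.14 in normoxia, and without the stretch, over 456 genes, 0.16 and 0.10. Medians of the other chromosomes ran from -0.33 for chromosome 13 to 0.35 for chromosome 21 in hypoxia and from -0.40 to 0.37 for the same 2 in normoxia. The run with most members had the highest median of the chromosome in both states. Runs on the long arm reached the level of its neighbours, with 0.48 in hypoxia and 0.47 in normoxia for ARPC1A to PPP1R35, 0.40 and 0.51 for TSC22D4 to ORAI2, and 0.42 and 0.22 for PHTF2 to ANKIB1.

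**Figure D3:**
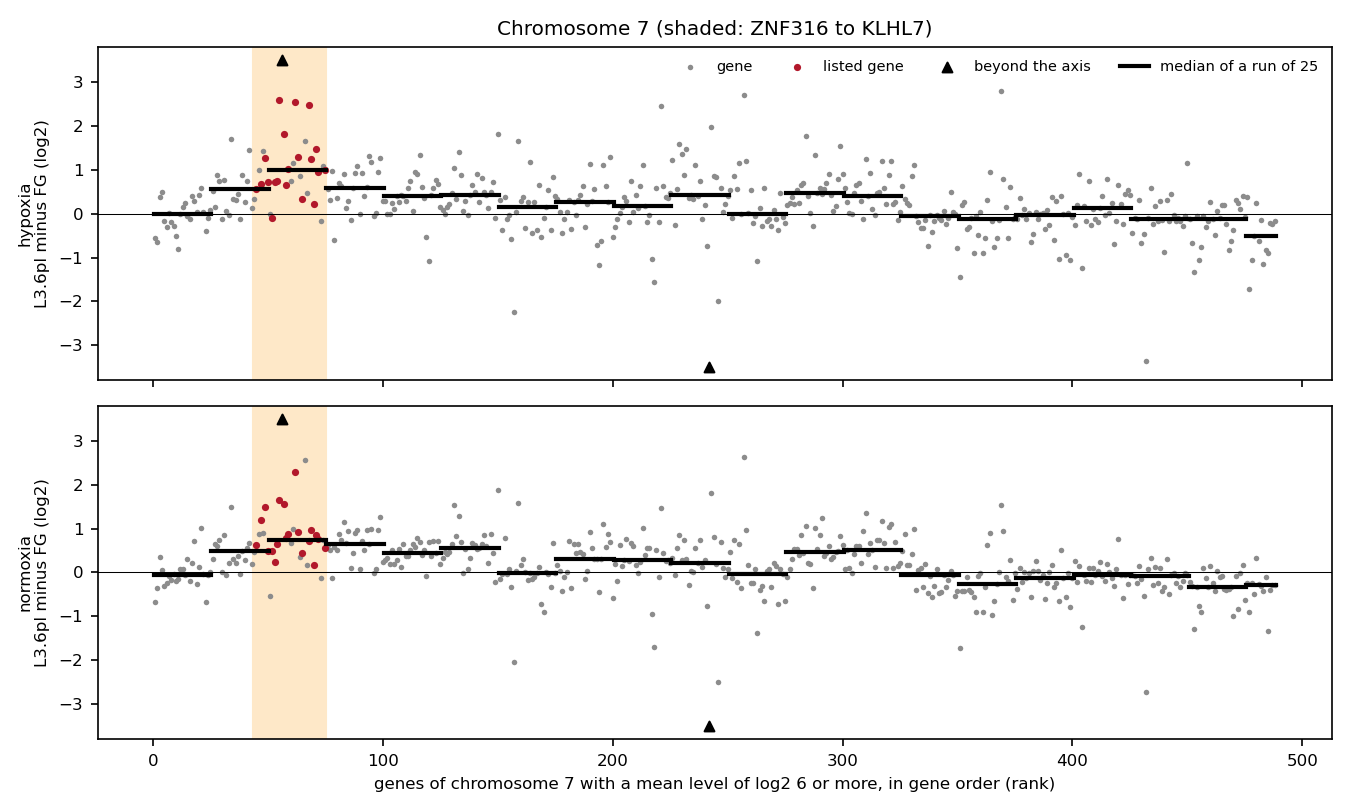
L3.6pl minus FG in log2 intensity (vertical axes) for genes of chromosome 7 with a mean level of log2 6 or more, ranked in gene order (horizontal axis), in hypoxia (top) and normoxia (bottom). Grey dots are genes, red dots listed genes, black lines the medians of runs of 25 genes, and the shaded band spans ZNF316 to KLHL7. Medians are 0.99 in hypoxia and 0.73 in normoxia in the run with most listed genes and stay above 0 in the runs that follow it up to IGFBP3.

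Between the ends, 29 measured genes are not on the list, 15 of them protein coding. Their median difference was 0.04 in hypoxia and 0.23 in normoxia, with 17 of the 29 above 0 in both states. The 17 with a mean under log2 6 had medians of 0.0031 in hypoxia and 0.12 in normoxia. The other 12 had medians of 0.94 and 0.70, near the 0.97 and 0.76 of the 20 listed genes of that level. Here too the split is not independent of the difference between the lines. SOSTDC1, LOC101927609, UMAD1 and GIRGL passed it with an FG mean under log2 6 in hypoxia, normoxia or both. The likeness to the listed genes is thus a description only. Of these 12, 10 were above 0 in both states. At least 2-fold higher in L3.6pl were 6 of them in hypoxia and 2 in normoxia, against 4.06% and 2.32% of all genes. These shares also count genes under log2 6, so that the 2 sets are not alike in level. Among all 29, SOSTDC1, an inhibitor of BMP and WNT signalling, LOC105375172 and GIRGL were at least 2-fold higher in L3.6pl in both states. SOSTDC1 had 9.14, 10.02 and 11.06 in L3.6pl hypoxia against 3.47, 3.83 and 3.94 in FG hypoxia, and 11.28, 10.49 and 10.70 in L3.6pl normoxia against 4.17, 4.08 and 4.26 in FG normoxia. Its FG values were far under log2 6 and its L3.6pl values far above it, so that the ratio of the lines has only a lower bound here and is not given. LOC105375172 had 7.25, 7.83 and 7.50 in L3.6pl hypoxia against 3.14, 3.27 and 3.04 in FG hypoxia, and 7.99, 7.34 and 7.38 in L3.6pl normoxia against 3.26, 3.26 and 2.73 in FG normoxia, again with FG near background. GIRGL was higher by 1.66 in hypoxia and 2.56 in normoxia, where its FG mean of 5.93 was under log2 6. IL6, named after its value was seen, was the one unlisted gene at least 2-fold lower in L3.6pl in a state, at -1.75 in hypoxia and -0.63 in normoxia.

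The second question was how the members responded to hypoxia in each line. The comparison runs within a line and was tested with limma over all 19775 genes, on the same arrays that gave the differences between the lines. Low FG hypoxia values enter both a higher L3.6pl minus FG difference in hypoxia and a fall in FG. The tests are thus not independent of the choice of the list. Calls are those with a Benjamini-Hochberg adjusted p below 0.05. In FG, 6 of the 31 members were lower in hypoxia and none was higher, where 6.47% of all genes were called lower and 4.24% higher. They were SP4, ETV1, RAPGEF5, ANKMY2, TSPAN13 and CDCA7L. In L3.6pl, SP4 and MACC1 were lower and none was higher, where 2.97% of all genes were called lower and 3.89% higher. At an unadjusted p below 0.05 there were 11 members in FG and 8 in L3.6pl. The median change over the 31 members was -0.23 in FG and -0.07 in L3.6pl, against -0.03 and -0.02 over all genes.

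SP4 was the only member called in both lines, from its brighter probe set. The other SP4 probe set, with a mean of 4.14 near background, did not show the fall. It changed by 0.06 in L3.6pl and 0.0053 in FG. On the arrays listed above, all hypoxic values of SP4 lay below all normoxic values of the same line. It fell by 0.79 ± 0.13 in FG (adjusted p = 0.00397 in limma) and by 0.50 ± 0.13 in L3.6pl (adjusted p = 0.0471). The FG call held without any single array. The L3.6pl call was lost without any 1 of 10 arrays, all but FG normoxia 1 and FG normoxia 3, at adjusted p of 0.0553 to 0.147.

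ETV1 fell most in FG, by 1.45 ± 0.29 (adjusted p = 0.0106 in limma), to a mean of 5.82 near background, with no overlap between the 3 hypoxic and the 3 normoxic FG arrays. The call held without any single array, but the mean of all 5 probe sets gave a change of -0.60. In L3.6pl its change was -0.51 ± 0.29 (adjusted p = 0.372). RAPGEF5 fell by 0.50 ± 0.12 in FG (adjusted p = 0.0214), with 5.79, 6.25 and 5.997 in hypoxia against 6.55, 6.46 and 6.52 in normoxia. Its 3 other, dimmer probe sets did not show this, and the mean of all 4 was 0.05 higher in hypoxia. The RAPGEF5 call was lost without FG hypoxia 1, FG hypoxia 3 or any FG normoxia array, at adjusted p of 0.0516 to 0.0717.

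ANKMY2 fell by 0.53 ± 0.13 in FG (adjusted p = 0.0302 in limma), TSPAN13 by 0.93 ± 0.25 (adjusted p = 0.037) and CDCA7L by 0.49 ± 0.13 (adjusted p = 0.0371). In each case the hypoxic FG arrays lay below the normoxic ones without overlap. The ANKMY2 call was lost without FG hypoxia 1 or 2 or FG normoxia 1 or 2 (adjusted p 0.0746 to 0.125). The calls of TSPAN13 and CDCA7L were each lost without any 1 of 8 arrays, the 3 of FG hypoxia, FG normoxia 2 and 3 and the 3 of L3.6pl normoxia (adjusted p 0.0512 to 0.148). The number of members called in FG was accordingly 2 without FG hypoxia 1 or FG normoxia 2, 3 without FG hypoxia 2, and at most 8 without any single array. In L3.6pl it was 0 without L3.6pl normoxia 2, 4 without L3.6pl hypoxia 3, and 1 without any of 8 others, FG hypoxia 1 to 3, FG normoxia 2, L3.6pl hypoxia 1 and 2 and L3.6pl normoxia 1 and 3. Calls over all genes moved too. Those in FG were 838 higher and 1279 lower with all arrays. They were 692 and 729 without FG hypoxia 1, 529 and 796 without FG normoxia 2, and 481 and 548 without FG hypoxia 2. Those in L3.6pl were 769 and 588 with all arrays. They were 343 and 165 without L3.6pl normoxia 2, and 954 and 1482 without L3.6pl hypoxia 3.

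MACC1 was called in L3.6pl, where it had 5.02, 5.03 and 4.77 in hypoxia against 5.61, 5.58 and 5.47 in normoxia. These levels are near background, and the groups did not overlap. It fell by 0.61 ± 0.12 (adjusted p = 0.0128 in limma), and the call was lost without L3.6pl normoxia 2 (adjusted p = 0.0594). In FG it had 4.48, 4.74 and 4.62 in hypoxia against 4.30, 4.66 and 4.51 in normoxia, a change of 0.12 ± 0.12. Its other 2 probe sets moved alike, by -0.80 and -1.08 in L3.6pl and by 0.04 and 0.02 in FG.

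AHR itself was not called in either line. Its change in hypoxia was -0.81 ± 0.37 in FG (adjusted p = 0.216 in limma) and -0.54 ± 0.37 in L3.6pl (adjusted p = 0.462). In FG the value was -0.34 without FG normoxia 1, the array that stood above its group. ITGB8 had the second largest change in FG, -1.25 ± 0.37 (adjusted p = 0.0536), and passed the threshold without FG normoxia 3 or L3.6pl normoxia 1 (adjusted p 0.0421 to 0.0474). Its change in L3.6pl was 0.52 ± 0.37 (adjusted p = 0.486). The other ITGB8 probe sets did not all follow the brightest one, with changes of -0.16 to 0.76 in FG and of 0.76 to 1.33 in L3.6pl. The remaining members ranged up to 0.59 in FG and 0.53 in L3.6pl, both for C1GALT1, the highest change in each line.

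**Figure D4:**
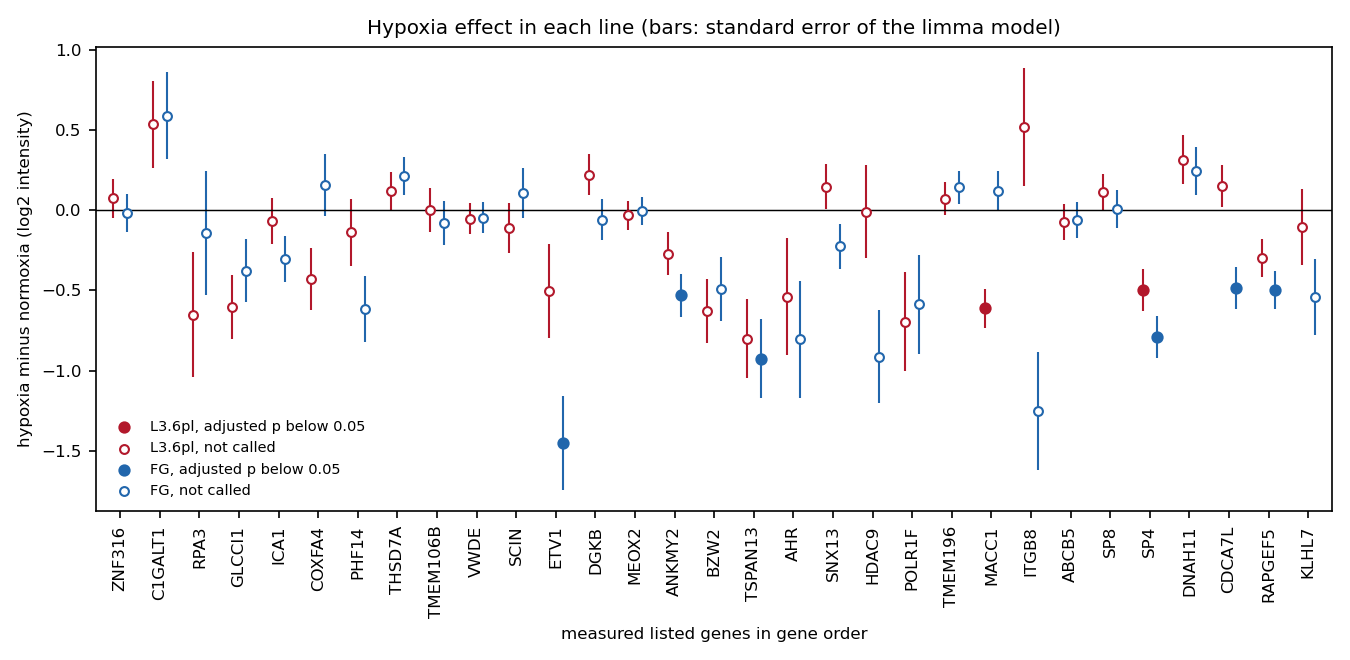
Hypoxia minus normoxia in log2 intensity (vertical axis) for the 31 measured listed genes in gene order (horizontal axis), in L3.6pl (red) and FG (blue). Points are limma estimates with standard errors, filled where the adjusted p was below 0.05. The 6 filled points of FG and the 2 of L3.6pl all lie below 0, and ITGB8 lies above 0 in L3.6pl and below it in FG.

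The third question was whether the response to hypoxia differed between the lines. The value tested is also the L3.6pl minus FG difference in hypoxia less that in normoxia. Both were known when the list was chosen, so that these p-values are not independent of that choice. The model without pairing called no member (limma, with 0.0253% of all genes called, 0.0152% higher and 0.0101% lower), with 4 members at an unadjusted p below 0.05 and a lowest adjusted p of 0.230, for MACC1. Same-numbered arrays of the 2 lines deviated together within each oxygen state, and with that number as a block 3 members were called. That fit also called far more of all 19775 genes, 503 higher and 200 lower. The change in hypoxia of L3.6pl less that of FG was 1.77 ± 0.148 for ITGB8 (adjusted p = 0.0045), 0.95 ± 0.160 for ETV1 (adjusted p = 0.025) and -0.74 ± 0.160 for MACC1 (adjusted p = 0.0485). Without the block the same differences had standard errors of 0.52 for ITGB8, 0.42 for ETV1 and 0.17 for MACC1, and adjusted p of 0.371, 0.676 and 0.230. The mean of all probe sets gave 0.85 for ITGB8, 0.23 for ETV1 and -0.89 for MACC1, so that the size for the first 2 rests on their brightest probe set.

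The AHR pathway was followed through 19 listed genes, of which 17 were measured and are reported here. In hypoxia 3 were higher in L3.6pl than in FG and none was lower, and in normoxia 2 were higher and none was lower, where 16.7% and 10.7% of all genes were called in either direction. The list's median difference was 0.04 in hypoxia and 0.26 in normoxia, against 0.02 over all genes. TIPARP, a mono-ADP-ribosyltransferase gene induced by AHR, had 11.59, 12.29 and 11.87 in L3.6pl hypoxia against 10.21, 10.50 and 10.38 in FG hypoxia. In normoxia it had 10.42, 10.53 and 10.62 in L3.6pl against 8.39, 8.19 and 8.27 in FG. L3.6pl was above FG on every array of the same state, by 1.55 ± 0.16 in hypoxia (adjusted p = 0.000108 in limma) and 2.24 ± 0.16 in normoxia (adjusted p = 1.11e-05). KYNU, kynureninase, which breaks down kynurenine, had 11.28, 11.64 and 11.80 in L3.6pl hypoxia against 9.98, 9.84 and 10.30 in FG hypoxia. It was higher in L3.6pl by 1.53 ± 0.23 in hypoxia (adjusted p = 0.00101) and by 1.65 ± 0.23 in normoxia (adjusted p = 0.000959), with no overlap between the lines in either state.

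CYP1A1, the xenobiotic-metabolising cytochrome used as the standard AHR target, was near background. It had 5.45, 6.09 and 5.79 in L3.6pl hypoxia against 5.14, 4.94 and 4.84 in FG hypoxia, and 5.17, 5.20 and 5.47 in L3.6pl normoxia against 4.95, 4.96 and 5.16 in FG normoxia. The hypoxic groups were separate, with L3.6pl higher by 0.81 ± 0.16 (adjusted p = 0.00572 in limma), and the normoxic difference was not called. The calls of TIPARP, KYNU and CYP1A1 held without any single array. Chaperones were not called, with HSP90AA1 at -0.04 in hypoxia and 0.45 in normoxia, HSP90AB1 at 0.15 and 0.31, and PTGES3 at -0.25 and 0.01, nor was NFE2L2, at -0.44 and -0.33. A block of same-numbered arrays of a state called 3537 of all 19775 genes higher and 2398 lower in hypoxia. In normoxia it called 2415 higher and 2161 lower. With that block, 6 genes of the list were called in hypoxia and 7 in normoxia. Beyond the genes above, CYP1B1 (0.82) was then higher in hypoxia and UGT1A6 (-1.65) and NFE2L2 lower, while HSP90AA1, NQO1 (0.52), ALDH3A1 (0.57) and AHRR (0.79) were higher in normoxia and UGT1A6 (-0.81) lower.

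Within the lines, TIPARP was higher in hypoxia, by 2.08 ± 0.16 in FG (adjusted p = 9.96e-05 in limma) and by 1.39 ± 0.16 in L3.6pl (adjusted p = 0.00102), and both calls held without any single array. It was the only one of the 17 called in FG, where 10.7% of all genes were called in either direction, against 6.86% in L3.6pl. Without L3.6pl hypoxia 3 there were 2 in FG, with 1036 of all genes called higher and 1863 lower. In L3.6pl, ARNT2, a second partner of AHR, was higher by 0.71 (adjusted p = 0.0436) and IDO1, which makes kynurenine, lower, at -0.49 (adjusted p = 0.0491), both near background. The ARNT2 call was lost without any 1 of 8 arrays (adjusted p 0.0528 to 0.171), namely FG hypoxia 1, FG normoxia 2 and 3, L3.6pl hypoxia 2 and 3 and any of L3.6pl normoxia. The IDO1 call was lost without any array but FG normoxia 1 and L3.6pl hypoxia 3 (adjusted p 0.0533 to 0.18).

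A second list held 27 genes that share a complex, a family or a known target relation with a member, of which 26 were measured. In hypoxia 5 were higher in L3.6pl and 3 lower, where 10.0% of all genes were called higher and 6.72% lower. In normoxia 3 were higher and 2 lower, where 5.16% and 5.54% were. The list's median was 0.0036 in hypoxia and 0.06 in normoxia. The PEA3-group relatives of ETV1 were both higher in L3.6pl in both states. ETV5 was higher by 1.73 ± 0.33 in hypoxia (adjusted p = 0.00461 in limma) and 1.56 ± 0.33 in normoxia (adjusted p = 0.0121), and ETV4 by 0.68 ± 0.15 (adjusted p = 0.011) and 1.08 ± 0.15 (adjusted p = 0.00108). MET, the receptor gene known as a target of MACC1, was lower in L3.6pl in normoxia, at -0.97 ± 0.17 (adjusted p = 0.00374). CUL3, the ligase scaffold that KLHL7 binds, was higher in hypoxia by 0.61 ± 0.12 (adjusted p = 0.00616), as was HDAC5, a relative of HDAC9, by 1.23 ± 0.29 (adjusted p = 0.0152).

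The partners of TOMM7 in the import pore of the outer mitochondrial membrane were lower where called. TOMM22 was at -1.10 ± 0.26 in hypoxia (adjusted p = 0.0158 in limma) and TOMM20 at -0.46 ± 0.11 in hypoxia (adjusted p = 0.016) and -0.42 ± 0.11 in normoxia (adjusted p = 0.0325). POLR1A, the largest subunit of RNA polymerase I, was higher by 0.54 in normoxia (adjusted p = 0.0412). In the model without pairing the partners of RPA3 were not called, with RPA1 at 0.37 in hypoxia and 0.18 in normoxia and RPA2 at -0.12 and 0.13. Nor was ITGAV, the partner chain of ITGB8, at -0.71 in hypoxia and -0.35 in normoxia. POLR1D, BZW1 and TOMM5, the brightest genes of the list not called in either state in that model, had -0.20, 0.18 and -0.10 in hypoxia and -0.30, 0.52 and 0.46 in normoxia.

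Single arrays mattered for several of these calls. ETV5 in normoxia was lost without FG normoxia 2 (adjusted p = 0.0535 in limma) and TOMM22 without FG hypoxia 1 or L3.6pl hypoxia 2 (adjusted p 0.0543 to 0.0582). HDAC5 was lost without FG hypoxia 1 or 2 or L3.6pl hypoxia 2 (adjusted p 0.0516 to 0.0653), and TOMM20 in hypoxia without FG hypoxia 2 or 3 or L3.6pl hypoxia 2 (adjusted p 0.0536 to 0.056). In normoxia TOMM20 was lost without FG hypoxia 2, FG normoxia 1 or 2 or L3.6pl normoxia 2 or 3 (adjusted p 0.0504 to 0.132). POLR1A was lost without any 1 of 8 arrays, FG hypoxia 2, L3.6pl hypoxia 1 and all 6 of normoxia (adjusted p 0.0549 to 0.135). ETV4 in both states, ETV5 and CUL3 in hypoxia and MET in normoxia held without any single array. The count of partner genes called in hypoxia was 4 without FG hypoxia 2 and 5 without FG hypoxia 1 or 3. In normoxia it was 2 without FG normoxia 2 and 3 without FG hypoxia 2, L3.6pl normoxia 2 or L3.6pl normoxia 3. Over all genes the hypoxic calls without FG hypoxia 2 were 1243 higher and 899 lower, against 1982 and 1328 with all arrays. The normoxic calls without FG normoxia 2 were 561 higher and 822 lower, against 1020 and 1096 with all arrays. Of all 19775 genes, a block of same-numbered arrays of a state called 3537 higher and 2398 lower in hypoxia. In normoxia it called 2415 higher and 2161 lower. With this block, 13 genes of the list were called in hypoxia and 9 in normoxia. Those added in hypoxia were RPA1 (0.37, adjusted p = 0.0414), ITGAV (-0.71), POLR1A (0.44) and MYC (0.45), and TOMM40 (-0.50). Those added in normoxia were BZW1 (0.52, adjusted p = 0.009), HDAC5 (0.76), TOMM22 (-0.50) and C1GALT1C1 (-0.43), the chaperone of C1GALT1.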

How the data were processed

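Transcripts were measured on 12 Affymetrix arrays, 3 in each of 4 groups taken from the labels. The authors deposited linear intensities normalized with RMA, per the submitters' processing notes, which give no version and no account of the step from log2 back to intensity. Their log2 was taken here. Medians of the arrays lay between 39.1 and 41.4 units, and no normalization was added. Precision is limited by the number of arrays.

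Of 54675 probe sets, 62 were controls, 41091 named 1 gene in the platform annotation, 1801 several and 11721 none. Each of 19775 genes was represented by its brightest probe set on average. Symbols, gene order and promoters came from RefSeq tables of GRCh38.p14.

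The members, both gene lists, the alternatives and the naming rule were chosen with earlier results of these data known. Named members are AHR, the 10 with the largest difference between the lines averaged over both oxygen states, and those called for hypoxia. From each list up to 6 called genes, those of smallest adjusted p, and up to 4 uncalled ones, those of highest mean, were named. Genes under a mean of log2 6 count as near background.

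All arrays entered 1 model of 4 group means in limma 3.58.1 under R 4.3.3 with eBayes (8 residual and 2.72 prior degrees of freedom), tested on simulated data. Errors of changes are limma's standard errors. Members were not tested between the lines, since that contrast chose them. The interaction is made of the same line differences, so that its tests are not independent of that choice. The alternatives were cyclic loess, median centring, the mean of all probe sets, a filter on dim genes, an intensity trend with robust moderation, array weights, a replicate block, cuts at log2 5 and 7, each array left out in turn, and 3 arrays left out together.

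Labels give replicate numbers but no shared culture or day. Deviations of same-numbered arrays of the 2 lines correlated at 0.358 to 0.462 in hypoxia and at 0.528 to 0.735 in normoxia. Unlike numbers gave -0.454 to 0.179 and -0.653 to 0.262. The block takes the numbers as pairs of the lines within a state, which the labels do not state, and was added after seeing the data. Between oxygen states same-numbered arrays correlated at -0.217 to 0.259 in FG and at -0.04 to 0.413 in L3.6pl, and were not taken as pairs. Arrays of unlike number reached 0.454 between L3.6pl hypoxia and FG normoxia.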

Additional observations from a re-analysis of the deposited data

Results flagged for a closer look

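A difference between the lines in the response to hypoxia was called for 3 members with same-numbered arrays of an oxygen state as a block. The block was added after seeing the data, and that fit called 503 of all 19775 genes higher and 200 lower. The tested value is also the line difference in hypoxia less that in normoxia, which were known when the list was chosen. The change in hypoxia of L3.6pl less that of FG was 1.77 for ITGB8, with changes of 0.52 in L3.6pl and -1.25 in FG. It was 0.95 for ETV1, with changes of -0.51 in L3.6pl and -1.45 in FG. It was -0.74 for MACC1, with changes of -0.61 in L3.6pl and 0.12 in FG, at levels near background. The adjusted p from limma was 0.0045, 0.025 and 0.0485 with the block and 0.371, 0.676 and 0.230 without it.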

How the results depend on the processing

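The median difference between the lines over the members was 0.55 in normoxia, and 0.415 when the probe sets of a gene were averaged, 0.764 without dim genes, 0.682 with members from log2 5 and 0.778 from log2 7. In hypoxia it was 0.643, and 0.969 without dim genes, 0.732 from log2 5, 0.987 from log2 7 and 0.498 without FG normoxia 1, L3.6pl normoxia 1 and L3.6pl hypoxia 3 together. Without single arrays it ran from 0.489 to 0.629 in normoxia and from 0.498 to 0.731 in hypoxia. Members at least 2-fold apart numbered 7 in normoxia (4 from log2 7, and 7 to 8 without single arrays) and 9 in hypoxia (8 to 11).

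Array weights raised the members called for hypoxia to 13 in FG and 10 in L3.6pl and the interaction to 3. They raised the calls over all 19775 genes too, to 2255 higher and 3474 lower in FG and 2080 and 3112 in L3.6pl. For the interaction they called 234 of all genes higher and 187 lower. They gave 10 genes of the AHR pathway between the lines in normoxia, 5 in hypoxia, 6 for hypoxia in FG and 7 in L3.6pl, and 10 partner genes in normoxia. Between the lines they called 3727 of all genes higher and 2896 lower in normoxia, and 2596 and 2008 in hypoxia. Without the 3 arrays together there were 10 members called in FG and 6 in L3.6pl. For the AHR pathway there were 4 genes between the lines in normoxia, 6 in hypoxia, 4 for hypoxia in FG and 8 in L3.6pl. Of all genes, 1396 were then higher and 2475 lower for hypoxia in FG, and 1560 and 2619 in L3.6pl. Between the lines 1312 were higher and 1269 lower in normoxia, and 2321 and 2095 in hypoxia. Cyclic loess, median centring, leaving out dim genes and the robust trend each left 1 member called in L3.6pl. Partner genes in normoxia numbered 3 with the mean of probe sets and 3 with the robust trend. Without single arrays, the calls ran from 2 to 8 members in FG, from 0 to 4 in L3.6pl and stayed at 0 for the interaction, with 4 members there at an unadjusted p below 0.05. For the AHR pathway they stayed at 2 in normoxia and ran from 3 to 4 in hypoxia, 1 to 2 in FG and 1 to 4 in L3.6pl, and for partners from 2 to 5 in normoxia and 4 to 10 in hypoxia. Over all genes, hypoxia calls in FG were fewest without FG hypoxia 2, at 481 higher and 548 lower. They were most without L3.6pl hypoxia 3, at 1036 and 1863. In L3.6pl they were fewest without L3.6pl normoxia 2, at 343 and 165, and most without L3.6pl hypoxia 3, at 954 and 1482.

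The replicate block over all groups gave 7 members in FG, 6 in L3.6pl and 0 for the interaction. Of all 19775 genes it called 1139 higher and 1853 lower in FG, 1083 and 1047 in L3.6pl, and 8 and 5 for the interaction. The replicate block within each oxygen state gave 3 members for the interaction, 7 and 6 genes of the AHR pathway in normoxia and hypoxia, and 9 and 13 partner genes. Of all 19775 genes that block called 503 higher and 200 lower for the interaction. Between the lines it called 2415 higher and 2161 lower in normoxia, and 3537 and 2398 in hypoxia. With the mean of all probe sets the hypoxia effect in FG turned from -0.50 to 0.0542 for RAPGEF5 and from -1.25 to 0.0383 for ITGB8, where most of the dimmer probe sets moved the other way. The cause of the other shifts was not tested. Of single-gene values under all alternatives, 1126 kept direction and side of the threshold, 128 fell short of it, 11 newly passed it, 28 untested ones moved and 2 turned round. Values near background limit what the 11 dim members can show.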
